A study of Drosophila melanogaster with 4 samples.

Results

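The regions described here are the peaks on 3L, the left arm of chromosome 3 of Drosophila melanogaster, in a chromatin immunoprecipitation sequencing (ChIP-seq) map of Eip74EF-GFP. They were taken by arm name alone, as every peak placed on 3L and none on the separate heterochromatic scaffold 3LHet, which gave 272 of the 1929 peaks in the list. All 4 libraries came from embryos 8 to 16 h old of the strain Eip74EF-GFP, with the genotype PBac{y[+]-attP-3B}VK00037 and a transgene of the Eip74EF genomic coding region. The libraries formed 2 groups: 2 precipitated with a rabbit polyclonal antibody against GFP and 2 libraries of input DNA, the unprecipitated chromatin background. Both groups carried the tagged transgene, so no untagged embryo served as a control. Whole embryos of a wide age range were used, so a peak cannot be assigned to a tissue or an hour. The labels give no alteration of the native Eip74EF gene, and the protocol in the labels names y; bw cn sp flies as the ones cultivated.

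Eip74EF is one of the early genes of the ecdysone response, in which a pulse of the steroid hormone activates a small set of transcription factors that in turn act on later genes. The gene makes protein forms from separate promoters, which share an ETS-type DNA-binding domain at the carboxyl end. In larvae the locus is known as one of the ecdysone puffs of the salivary gland polytene chromosomes, and ecdysone also acts in the embryo. The RefSeq gene table places Eip74EF on 3L, the arm described here. Its positions are those of genome release 6 and the peaks are placed on release 5, and no conversion between the releases was made. No peak is therefore called a peak at Eip74EF or at any other gene.

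The 272 peaks on 3L ran from 90899 to 24530507 (release 5), counted from the telomere towards the centromere. The density was 11.1 peaks per Mb, and the peaks covered 132 kb, or 0.542% of the span. The peak score is the authors' own, on a scale not given in the sources used here, and it serves below only to rank and describe peaks of this list. On 3L it ran from 6.79 to 216.36, with a median of 17.4 and quartiles of 11.8 and 29.5. Over the whole list the median was 17.87 and the quartiles were 12.3 and 33.04. The list gives 1 value per peak and none per library, so no value here has an error between replicates and the depth is unknown. Differences between arms or between groups of peaks are given as values and were not tested.

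**Figure D1:**
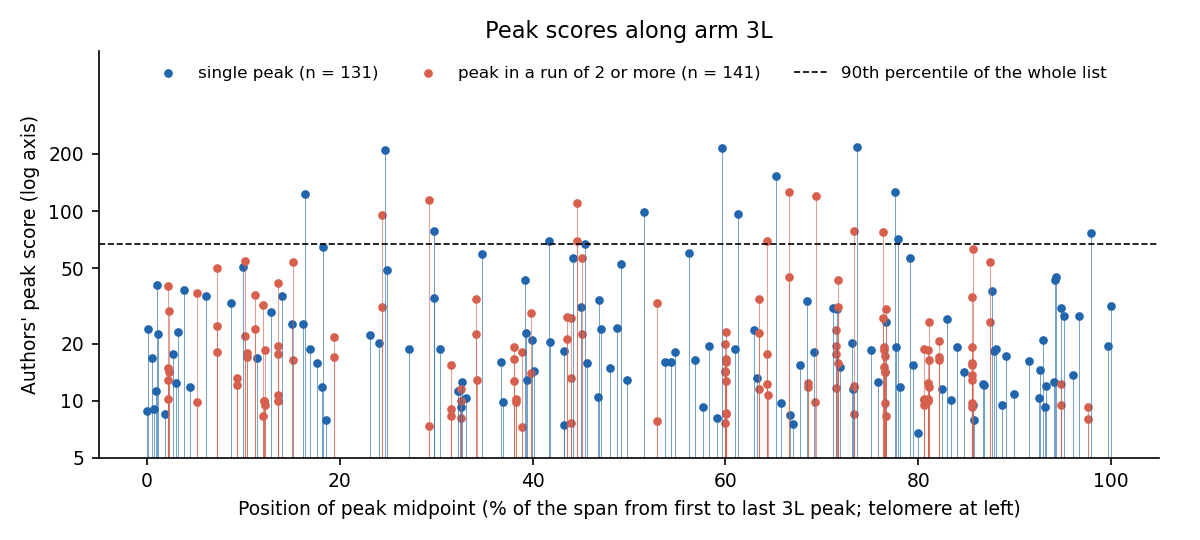
Authors' peak score (log axis) of each of the 272 peaks against its position, as a percentage of the distance between the outermost peaks of the arm. The dashed line is the 90th percentile of score in the whole list (67.2); 22 peaks lie above it, of which 13 are single peaks.

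Strong sites, defined as peaks at or above the 90th percentile of the whole list (a score of 67.2), numbered 22 on 3L. They made up 8.09% of the 3L peaks (exact Clopper-Pearson 95% interval 5.14 to 12.0%, which covers counting error only), beside 10.0% of the whole list. The share was 11.4% on 2L outside its dense run (the run of most peaks on that arm, left out throughout), 10.6% on 2R, 12.6% on 3R and 16.8% on X. The lowest score among the strong 3L peaks was 67.34 and the highest score below the line was 64.53. At or above the 75th percentile of the list, 3L had 56 peaks, or 20.6% of its own (interval 15.9 to 25.9%). The share at that line was 25.1% of the whole list. It was 26.0% on 2L outside its dense run, 24.4% on 2R, 24.7% on 3R and 36.0% on X.

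The 3 highest peaks on 3L stood well above the others, and each was alone within 10 kb. The strongest, 3L:18081058-18081638, scored 216.36 over a width of 581 bp and ranked 9th in the whole list. The second, 3L:14666677-14667567, scored 214.06 over 891 bp. The third, 3L:6118019-6118847, scored 209.48 over 829 bp. The next score on the arm was 152.84, so a step of the scores separated these 3 peaks from the rest. They lay far apart, at 73.6%, 59.6% and 24.7% of the way from the first to the last peak.

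Scores between 100 and 200 were found at 7 further sites. In all, 10 of the 272 peaks on 3L scored above 100 and 3 above 200. Over the whole list of 1929 peaks the numbers were 88 and 12. The peak at 3L:16045063-16046136 scored 152.84 and its nearest neighbour was 110 kb away. The peak at 3L:19055603-19056835 scored 126.70, and 3L:16373748-16375152, the widest of the strong peaks at 1405 bp, scored 126.68. The first of these was a single peak with the next 22.0 kb away, and the second had a companion 1.95 kb before it. The peak at 3L:4092571-4093181 scored 123.07, the one at 3L:17043353-17044484 scored 120.27, and the one at 3L:7242204-7242934 scored 114.27. The last of the 7, at 3L:11003334-11004241, scored 110.81 and was the stronger member of the one pair on the arm in which both peaks were strong. Its partner, 3L:11002032-11002825, lay 508 bp before it and scored 69.84.

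The other peaks among the 20 highest scores ran from 99.44 down to 69.77. The isolated peak at 3L:12686160-12686935 scored 99.44, with 427 kb empty before it and 329 kb empty after it. It was the most isolated of the strong peaks. The peak at 3L:15072376-15073072 scored 96.04, and 3L:6051852-6052622 scored 95.63 and lay 65.4 kb before the third strongest peak of the arm. A score of 78.44 was shared by 3L:7374512-7375114 and 3L:18019013-18019540. The peak at 3L:18752187-18752792 scored 77.23. Near the centromeric end, 3L:24020758-24021728 scored 76.23 and was the only strong peak beyond 20 Mb. The peaks at 3L:19133380-19133949 and 3L:10277580-10278334 scored 70.83 and 69.77.

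Of the 22 strong peaks, 13 had no other peak within 10 kb, 7 belonged to runs of 2 and 2 to runs of 4. Among all 272 peaks, 131 were single, 52 lay in runs of 2 and 89 in runs of 3 or more. Strong peaks in runs were thus mainly in pairs, although longer runs held more peaks. The median distance from a strong peak to the nearest other peak was 30.9 kb, beside 8.18 kb for the other 3L peaks. The strong share was 9.92% of the 131 single peaks and 6.38% of the 141 peaks in runs. On 2L outside its dense run the shares were 15.6% of single peaks and 8.18% of peaks in runs, the same order. On X the order was the opposite, 13.3% of single peaks and 21.3% of peaks in runs. On 2R the values were close, 10.6% and 10.5%, as were those of 3R, 12.9% and 12.4%.

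Strong sites were spread unevenly along the arm. No strong peak lay in the first 4 Mb, which held 52 peaks with scores up to 54.42, and 1 lay beyond 20 Mb, where 49 peaks were found. Between 14 and 20 Mb, 11 of the 22 strong peaks (50.0%) lay among 87 of the 272 peaks (32.0%). The edges at 4, 14 and 20 Mb were chosen after the values were seen. In blocks of 5 Mb from the telomere, the strong peaks numbered 1, 4, 6, 10 and 1. The upper quartile of score was similar in the first and the fourth block, 31.85 and 30.27, so their contrast lay in the highest scores. The distance between neighbouring strong peaks ran from 1.36 kb to 4.89 Mb, with a median of 669 kb.

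The number of peaks followed another order along the arm than the number of strong peaks. The 5 blocks held 61, 43, 46, 73 and 49 peaks, the last block being incomplete because the final peak ended at 24530507. The fourth, from 15 to 20 Mb, was the fullest with 26.8% of the arm, and the second, from 5 to 10 Mb, the emptiest with 15.8%. The first block was the second fullest, yet it held a single strong peak, at 4.09 Mb. Median scores of the 5 blocks were 18.0, 16.0, 18.9, 17.6 and 15.7, a range narrower than the quartiles within any one of them. Median widths were 390, 370, 422, 420 and 347 bp. Across the 272 peaks Spearman's rho with position was -0.07 for score and -0.04 for width, given as descriptions, since peaks of 1 list share their libraries.

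At a finer scale the number of peaks also varied along the arm. The 25 bins of 1 Mb held from 2 to 20 peaks, with a median of 11. The fullest bins were 21 to 22 Mb with 20 peaks, 18 to 19 Mb with 19 and 19 to 20 Mb with 18. These bins differed in their highest score, which was 62.98 in the first, 216.36 in the second and 126.70 in the third. Their median scores were closer, at 15.57, 17.25 and 13.9. The emptiest were 5 to 6 Mb with 2 peaks, followed by 12 to 13 Mb and the incomplete last bin with 3 each. The sparse bin at 12 to 13 Mb had a median score of 52.9 and included the isolated 99.44 peak, whereas the 7 peaks at 22 to 23 Mb had a median of 12.0 and none above 20.81. Strong peaks were present in 13 of the 25 bins.

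Many peaks on 3L lay in runs, formed by joining peaks separated by at most 10 kb. The arm resolved into 179 units, of which 131 were single peaks, 26 were pairs and 22 were runs of 3 or more. Of the 272 peaks, 141 (51.8%, exact interval 45.7 to 57.9%) lay in runs of 2 or more. The share was 56.6% on 2L outside its dense run, 48.7% on 2R, 52.2% on 3R and 43.9% on X. The runs of 3 or more took in 89 peaks (32.7%) and measured from 1.35 to 31.9 kb, with a median of 8.31 kb.

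On 3L, 5 runs had 5 or more peaks. The largest, 9 peaks at 3L:21000805-21020466, was made of a group of 6 and a group of 3 with 8.60 kb empty between them. In the order of position its scores were 15.72, 19.16, 9.73, 13.68, 9.26, 35.1, 12.84, 15.42 and 62.98, so each group ended in its highest peak. The last 2 peaks of the run were 1215 and 1185 bp wide and 74 bp apart. Peaks took up 30.2% of its length.

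Both runs of 6 were weaker. That at 3L:616783-648662 included the widest peak of the arm, 2054 bp with a score of 40.27, and closed with a peak of 29.66, while its other 4 peaks scored from 10.26 to 14.88. That at 3L:14773408-14783694 had scores from 8.53 to 23.06, the highest in the last peak. It began 20.8 kb after a run of 4 peaks at 3L:14748160-14752605, which scored from 7.64 to 19.80. Of the runs of 5, the one at 3L:3417130-3420263 was compact, with all its peaks within 3.13 kb, 56.5% of its length covered and a highest score of 41.94. The other, at 3L:18764727-18794303, was loose. Its first 4 peaks began at 0, 10.1, 19.6 and 28.5 kb from the start of the run, and its scores lay between 14.21 and 19.16.

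**Figure D2:**
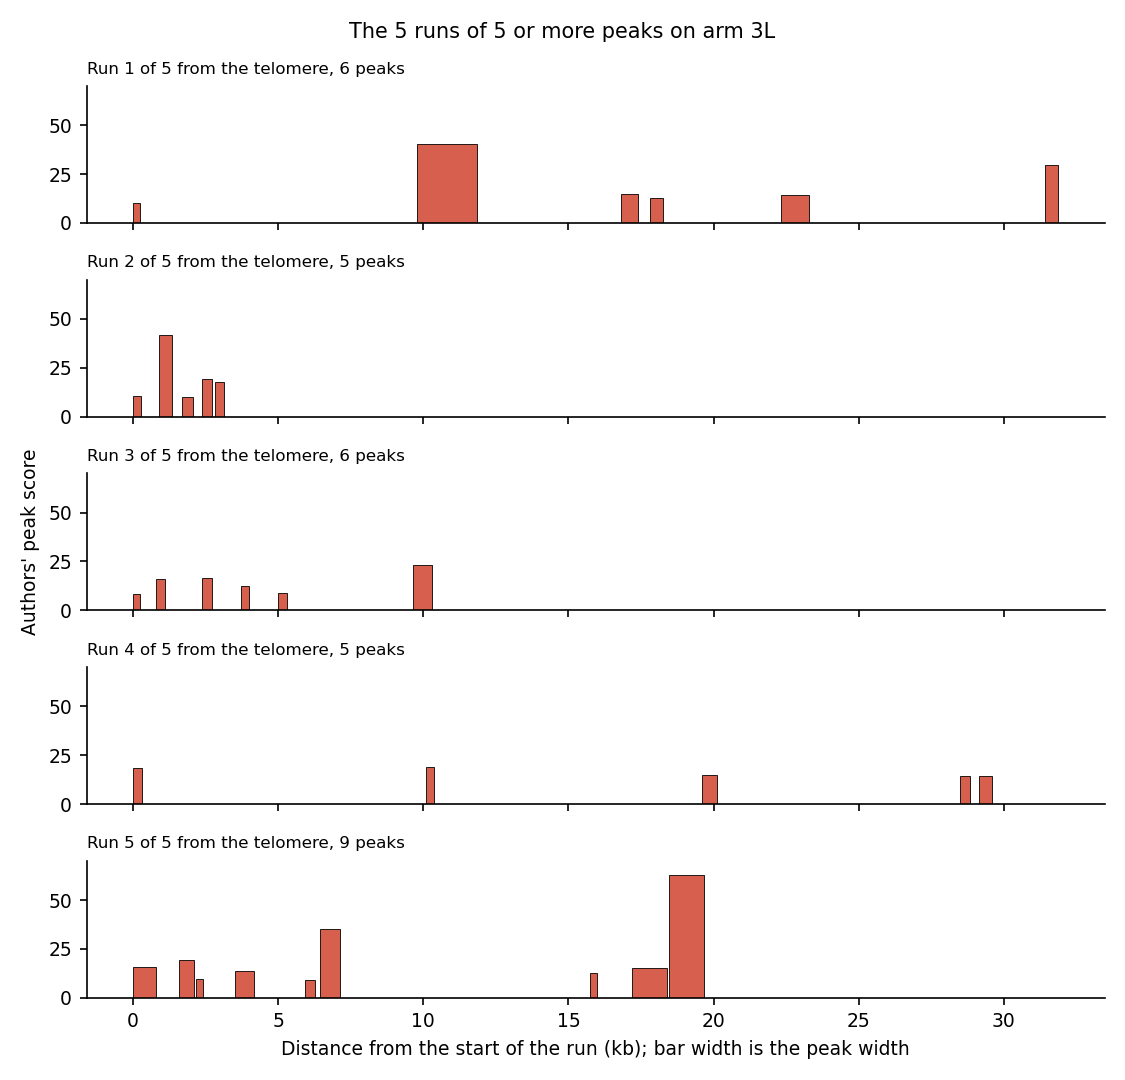
The 5 runs of 5 or more peaks, each drawn from its first base, with bar height the authors' peak score and bar width the peak width (x axis in kb). The compact run 2 measured 3.13 kb and run 1 measured 31.9 kb; the highest bar, at the end of run 5, is 62.98.

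The 7 runs of 4 peaks were added to the named runs after their values were seen, and 2 of them held a strong peak. At 3L:18009434-18019540 the scores were 11.76, 8.53, 12.03 and 78.44, so a strong peak closed a series of weak ones. At 3L:15802595-15827178 they were 12.25, 17.55, 69.54 and 10.72. In the other 5 runs of 4 no score passed 30.27. One of these, at 3L:17556836-17567100, had scores of 23.62, 11.61, 19.32 and 17.57, with gaps of 2.37 to 3.20 kb. A run of 3 followed at 3L:17599760-17607626, with a highest score of 43.5. The remaining runs of 4 lay at 3L:18812130-18816250, 3L:19784350-19787665 and 3L:19888605-19901851.

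Within runs, scores were often unequal. In the 26 pairs the stronger peak scored 19.35 more than the weaker at the median, and the difference ran from 0.03 to 110. The pair at 3L:17035708-17044484 had scores of 9.84 and 120.27, and the pair at 3L:7242204-7243306 had scores of 114.27 and 7.37 over a gap of 153 bp. In the pair at 3L:16370862-16375152, the partner of the 126.68 peak scored 44.77. The partner scored 31.06 at 3L:6047874-6052622 and 27.21 at 3L:18749983-18752792. In 13 of the 26 pairs the gap was at most 1 kb. In 13 of the 22 runs of 3 or more, the highest peak was the first or the last. Of these runs, 10 had 3 peaks, in which all but the middle peak are first or last. The count is therefore not read as a feature of the runs.

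Peaks in runs had a slightly lower median score than single peaks. It was 18.77 for single peaks and 16.32 for peaks in runs, a difference (runs minus single) of -2.45. The same difference was -6.75 on 2L outside its dense run, -2.60 on 2R, -3.84 on 3R and 1.77 on X. When peaks within 1 kb were first merged the difference on 3L was -0.30. By run size, the median was 19.8 for the 52 peaks in pairs and 15.4 for the 89 peaks in runs of 3 or more. Median widths were 391 bp for single peaks and 376 bp for peaks in runs.

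By distance to the nearest peak, the lowest median score was that of the closest peaks. The 74 peaks with another within 1 kb had a median score of 14.6 and quartiles of 9.97 and 19.7. The 67 peaks with the nearest at 1 to 10 kb had a median of 18.0. The medians were 19.7 for the 58 peaks at 10 to 50 kb, 19.1 for the 36 at 50 to 100 kb and 17.3 for the 37 at more than 100 kb. From the closest to the most isolated class, strong peaks made up 4.05%, 8.96%, 8.62%, 16.7% and 5.41%, from 3, 6, 5, 6 and 2 peaks, so the share did not rise steadily with distance. The median width of the most isolated class, 339 bp, was below the 464 bp of the 10 to 50 kb class. A peak and the next along the arm had nearly unrelated scores (Spearman's rho of 0.05 across 271 neighbouring pairs, as a description).

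**Figure D3:**
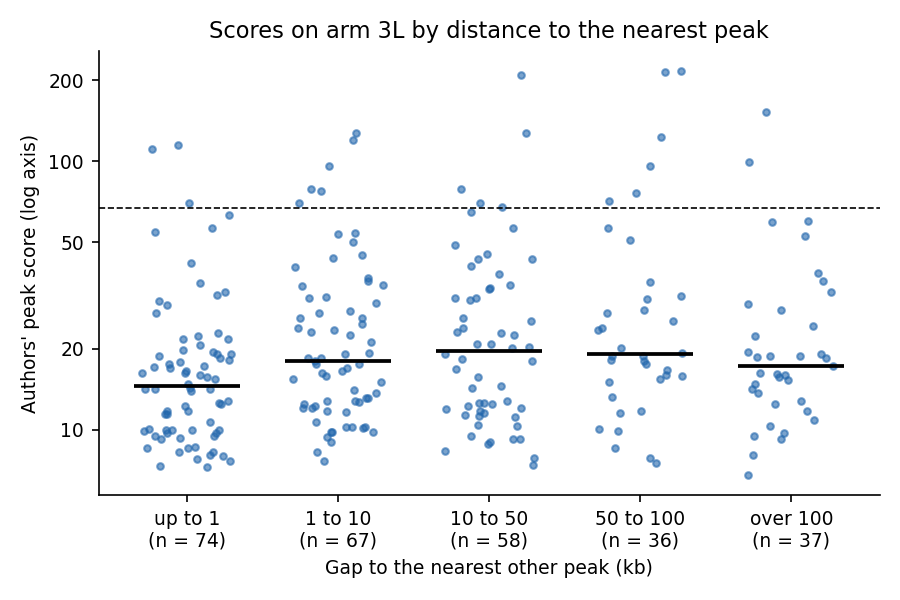
Authors' peak score (log axis) of the 272 peaks on 3L, grouped by the gap to the nearest other peak in kb. Black bars are medians, from 14.6 in the class up to 1 kb to 19.7 in the class from 10 to 50 kb, and the dashed line is the 90th percentile of the whole list.

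Gaps between neighbouring peaks had a longer median on 3L than on the 4 arms set beside it. It was 39.9 kb, beside 28.9 kb on 2L outside its dense run, 30.6 kb on 2R, 27.6 kb on 3R and 30.8 kb on X. In the same order, these 4 arms had 12.3, 14.8, 13.4 and 9.92 peaks per Mb, beside 11.1 on 3L. By density, 3L was thus sparser than the other autosomal arms named but not than X. Short gaps were about as frequent as on the other large autosomal arms. Of the 3L gaps, 15.1% were at most 1 kb and 19.2% between 1 and 10 kb, beside 12.9 to 15.4% and 18.0 to 19.0% on 2L, 2R and 3R. Gaps of 10 to 100 kb made up 32.5% on 3L and 38.0 to 45.7% on the other 4 arms. Gaps of 100 to 300 kb made up 27.7% on 3L, beside 22.9% on 2L (again outside its dense run), 19.0% on 2R, 22.6% on 3R and 18.8% on X.

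**Figure D4:**
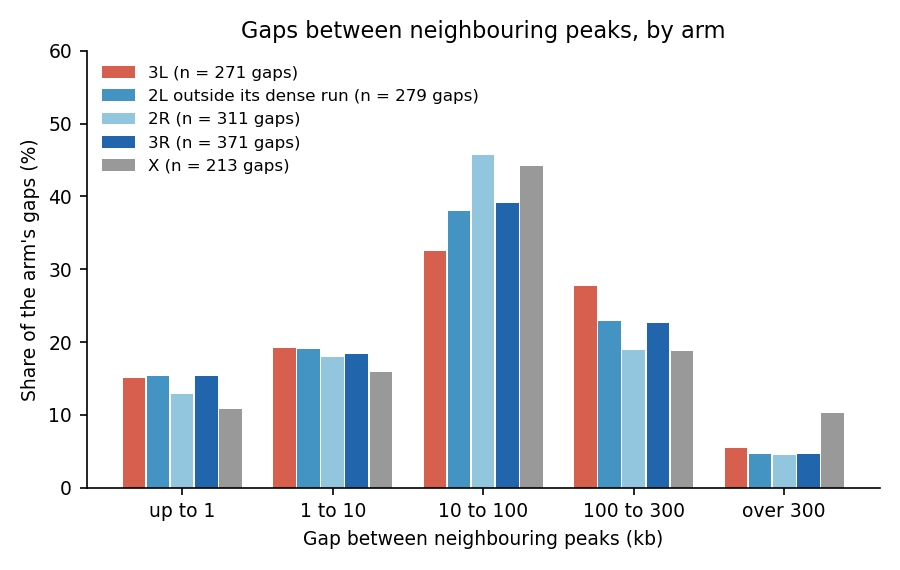
Share of an arm's gaps between neighbouring peaks (%) by gap length in kb, for 3L and 4 other arms. 3L has 32.5% of its gaps in the class from 10 to 100 kb and 27.7% in the class from 100 to 300 kb.

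Peak-free gaps of 300 kb or more numbered 15 on 3L and together took up 6.71 Mb, or 27.4% of the span. The number was 6.14 per 10 Mb, close to the 5.71 of 2L, 6.66 of 2R and 6.11 of 3R, while X had 10.2. The longest, 920 kb at 3L:4825887-5746067, lay between peaks that scored 17.1 and 22.33. The next, 568 kb at 3L:6167440-6735470 and 506 kb at 3L:6735809-7242203, were parted by a single peak with a score of 18.8. The 3 longest gaps thus followed one another along the arm, with the strong peaks at 6.05 and 6.12 Mb between the first and the second. The fourth, 467 kb at 3L:8597944-9065269, began after a peak of 59.39. The fifth, 436 kb at 3L:17044485-17480155, began at the edge of the 120.27 peak.

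Strong peaks often bordered the long gaps. A strong peak stood on at least one side of 8 of the 15 gaps, among them the strongest peak of the arm, which was followed by 372 kb without a peak. Of the 28 peaks that bordered a long gap, 7 were strong (25%, exact interval 10.7 to 44.9%), beside 15 of the other 244 (6.15%, interval 3.48 to 9.94%). The median score was 22.95 at the borders and 16.63 elsewhere, a difference of 6.32. Among single peaks alone the medians were 22.3 for the 23 at borders and 17.8 for the 108 others. These border comparisons were chosen after the values were seen and were not tested, and the intervals cover counting error only.

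On the other 4 arms the median score was also higher at such borders, while the strong share was higher there on 2 of them. The strong share at borders and elsewhere was 18.2% and 12.1% on 3R, 11.5% and 10.5% on 2R, 8.00% and 11.7% on 2L outside its dense run, and 12.5% and 17.8% on X. The difference in median score was 18.7 on 2L outside its dense run, 0.89 on 2R, 0.99 on 3R and 2.24 on X.

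Peaks on 3L were narrow, with a median width of 391 bp (quartiles 286 and 612 bp), beside 404 bp over the whole list. The range was 201 to 2054 bp, and 256 of the 272 peaks (94.1%) were under 1 kb. Wider peaks had higher scores, with a Spearman's rho of 0.70 across the 272 peaks, beside 0.78 on 2L outside its dense run, 0.74 on 2R, 0.72 on 3R and 0.67 on X. The rho is a description, since width and score come from the same call. From the lowest to the highest of 4 equal classes of the 3L scores, median widths were 261, 354, 428 and 627 bp. The 22 strong peaks had a median width of 774 bp, and the other peaks 370 bp.

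Wide peaks were more often strong than the peaks of the arm as a whole, yet most of the widest were not strong. The 5 widest were 2054 bp at 3L:626564-628617, 1831 bp at 3L:9685792-9687622, 1608 bp at 3L:11112389-11113996, 1405 bp at 3L:16373748-16375152 and 1343 bp at 3L:24529165-24530507. Their scores were 40.27, 43.28, 56.22, 126.68 and 31.45, so 1 of the 5 was strong. Of the 16 peaks of 1 kb or wider, 4 were strong, beside 22 of all 272 peaks on the arm (8.09%). The scores of these 16 went down to 15.42. In contrast, the strongest peak of the arm was 581 bp wide, and the narrowest strong peak, 3L:11198996-11199373, scored 67.34 over 378 bp.

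**Figure D5:**
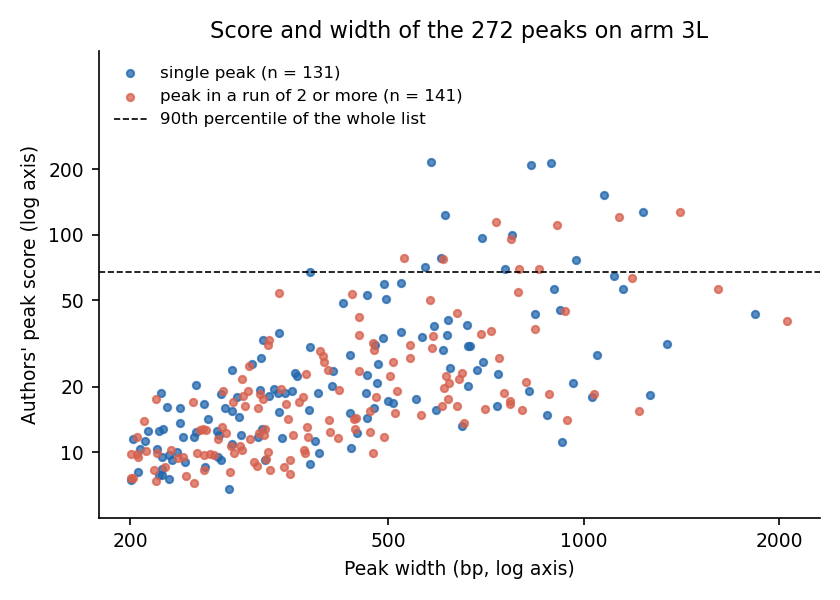
Authors' peak score against peak width in bp (both on log axes) for the 272 peaks on 3L, coloured by whether another peak lay within 10 kb. The strongest peak (216.36) was 581 bp wide, and the widest (2054 bp) scored 40.27.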

How the data were processed

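ChIP-seq with an antibody against GFP was done on embryos 8 to 16 h old, cross-linked in 1.8% formaldehyde for 15 min, per the labels' protocols. The authors deposited 1 peak list for 4 libraries, with positions in FlyBase release 5 and a peak score, per the file headers. The source column names MACS. The submitters' processing notes name BWA, MACS2, CASAVA (1.7.0.2 and 1.7.0.3) and the build BDGP5. Not given in the sources used here are the settings, the threshold, the score scale and any pooling of libraries. How a peak was called in each replicate is therefore unknown, as is depth.

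Peaks on 3L were joined over gaps of at most 10 kb, and placed by midpoint in blocks of 5 Mb and bins of 1 Mb. Gaps run from the end of a peak to the start of the next. On 2L, the run of most peaks was left out. Python 3.11.15, pandas 2.3.3 and scipy 1.17.1 were used, and the joining step was tested on simulated data. No test between groups was run. The members and rules were chosen with earlier results of these data known. Regions named on 3L are the 20 highest scores, the runs of 5 or more and those holding the 10 highest scores, the 5 widest peaks, the 5 longest gaps, and the 3 fullest and 3 emptiest bins. Other regions were added after their values were seen. Alternatives varied the joining gap, the score threshold, merging within 1 kb, the gap length and the blocks. No genome of release 5 was used here, so no sequence or gene is given.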

Additional observations from a re-analysis of the deposited data

How the results depend on the processing

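With peaks under the list's median score left out, the density on 3L was 5.41 per Mb, the median score 30.4, the median width 567 bp and the rho of width with score 0.47. In that stricter set 1 run of 3 or more peaks was left, 26.5% of peaks lay in runs of 2 or more, and 34 gaps reached 300 kb. Fewer peaks entered by construction. With peaks within 1 kb merged, the density was 9.45 per Mb, the median width 468 bp, the runs of 3 or more 11, and the share of peaks in runs 36.8%. That share was 44.1% with a joining gap of 5 kb and 59.9% with 20 kb. Strong sites numbered 56 at the 75th percentile (20.6% of the 3L peaks, beside 25.1% of the whole list). At the 95th they numbered 13 of 272. No share was worked out at the 95th, so the 13 are not read as few or many. Gaps numbered 40 at 200 kb and 8 at 400 kb. The lower median score in runs kept its sign in the 3 alternatives tried for it. Its difference shrank from -2.45 to -0.30 with peaks within 1 kb merged. The higher median at the borders of long gaps kept its sign in 4 alternatives chosen after seeing the data (2.67 to 13.9). The other alternatives moved counts by less than 1.5 times, and left shares, medians and the density within a 95% interval of the main value. That interval was exact binomial for shares, from binomial order statistics for medians, and from the arm's binomial share of the list for the density. No paired analysis was possible because each peak has 1 score for the whole series, which also means that leaving out a replicate could not be tried. The depth behind a peak is unknown.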

Other observations

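Scores on 3L were not all distinct. The 272 peaks took 210 different scores, 101 of them shared their score with another 3L peak, and the most common value, 11.76, occurred 6 times. In the whole list 1143 of 1929 peaks (59.3%) shared a score with another peak. The smallest width in the list was 201 bp, which 3 peaks on 3L and 26 peaks in all had.

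The scaffold 3LHet, which holds heterochromatic sequence of the same arm and was not counted with 3L, had 13 peaks. The lowest score was 8.18, the median 29.5 and the highest 128.66, the widths were 239 to 1294 bp (median 603 bp), and 2 of them passed the line for strong sites used on 3L.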
